A study of Mus musculus with 30 samples.

Results

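Mapk13 encodes p38delta, 1 of the kinases of the p38 family of stress-activated MAP kinases. Its RNA level was followed in 2 brain regions of mice deficient in COX-1 or COX-2, through every probe annotated to the gene. Mapk13 is 1 of 7151 genes named on the membrane and has 1 probe, in the second of the 2 parts into which the value table falls. The gene was chosen by its differences between null and wild-type arrays and between the wild types, which are therefore described without a test. The heterozygous arrays allow tests, although the wild-type or null arrays on the other side of 4 of those 5 tests had been part of the choice. The tests were also chosen with earlier results of these data known, so none of them is wholly independent of those results.

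The study measured RNA of both regions in mice that lack COX-1 or COX-2, the enzymes that start prostaglandin synthesis from arachidonic acid. All mice were 12 weeks old and untreated. The COX-1 line had wild-type (COX-1+/+) and null (COX-1-/-) mice, and the COX-2 line had heterozygous (COX-2+/-) mice besides its wild-type (COX-2+/+) and null (COX-2-/-) mice. Each of these 5 genotypes had 3 arrays of cerebral cortex and 3 of hippocampus, 30 arrays in all. Each array is a nylon membrane hybridised with radiolabelled cDNA of the tissue. Wild-type mice came from a separate colony for each line, both of the same mixed genetic background, and they were bred from wild-type parents, while null mice came from null fathers and heterozygous mothers. The breeding of the COX-2+/- mice is not given in the sources used here. The deletions are present in every cell of the mouse from conception. Between the lines, a difference of wild types cannot be told apart from one of colonies, and within a line genotype cannot be told apart from parentage.

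p38 kinases are switched on by the upstream kinases MAP2K3 and MAP2K6 when a cell meets cytokines, osmotic stress or other injury. They then phosphorylate transcription factors, other kinases such as MAPKAPK2, and proteins of translation and the cytoskeleton, and phosphatases of the DUSP family switch them off. p38alpha, encoded by Mapk14, is the widely expressed member, and p38delta differs from it in tissue distribution and in its response to the common p38 inhibitors. p38delta is known for phosphorylating tau, stathmin and the kinase eEF2K. An array of this kind reads the RNA of the kinase and not its phosphorylation or activity.

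The values are the authors' Z scores. A unit is 1 standard deviation (SD) of the natural log intensity over an array, and 0 is the mean of the array. Differences are therefore given in Z and cannot be read as folds. Arrays of 1 group correlated with r between 0.984 and 0.993 over the probes of the second part. Of the 6 COX-1 cortex arrays, 5 hold identical values in the first part of the table, which does not contain Mapk13, and that part was set aside in COX-1 cortex. Markers gave a limited check of the tissue labels. Of 9 neuronal markers 3 were measured, and in COX-2+/+ and COX-2+/- cortex their mean Z was 1.19 for Tubb3, 0.118 for Snap25, and 0.305 and -0.0765 for the probes of Nefl. The layer markers of cortex looked for had no probe. The only hippocampal marker with a probe, Zbtb20, was below the array mean in every group measured, with group means of -0.205 to -0.133 in cortex and -0.128 to -0.0105 in hippocampus, so these markers do not settle the region labels. Of the markers of oligodendrocytes, 0 of 7 were measured.

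Mapk13 was above the array mean on all 30 arrays. Its Z score lay between 0.410 and 1.48 with a median of 0.931, which placed it between the 68.1st and the 92.6th percentile of the probes of its part of the table. Both ends of this range were reached in the cortex of the COX-1 line. In a tissue sample, fewer cells of a type that expresses the gene and less of its RNA per cell cannot be told apart.

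In COX-1+/+ cortex the 3 arrays read 1.31, 1.48 and 1.39, a mean of 1.39 ± 0.0811 (SD, n = 3). In COX-1-/- cortex they read 0.935, 0.936 and 0.410, a mean of 0.760 ± 0.303 (SD, n = 3). The wild-type arrays of this line were all higher than the null arrays, and 1 null array, replicate 3, was lower than every other array of the series. That array is also the only COX-1 cortex array whose first part does not hold the values shared by the others.

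In COX-2+/+ cortex the arrays read 0.959, 0.872 and 0.652, a mean of 0.828 ± 0.158 (SD, n = 3). In COX-2-/- cortex they read 0.896, 0.956 and 0.972, a mean of 0.941 ± 0.0403 (SD, n = 3). In COX-2+/- cortex they read 1.07, 1.32 and 0.979, a mean of 1.12 ± 0.178 (SD, n = 3). The wild-type and null arrays of this line overlapped, and the heterozygous arrays lay above all of them by a narrow margin. The lowest heterozygous array read 0.979, and the highest null and wild-type arrays read 0.972 and 0.959.

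In the hippocampus, the COX-1+/+ arrays read 0.6, 0.677 and 0.615, a mean of 0.631 ± 0.0409 (SD, n = 3). The COX-1-/- arrays read 0.828, 0.981 and 0.791, a mean of 0.866 ± 0.101 (SD, n = 3). Here the null arrays were all higher than the wild-type arrays, the opposite order from the cortex of the same line. The COX-2+/+ arrays read 0.777, 0.927 and 0.682, a mean of 0.795 ± 0.123 (SD, n = 3), and the COX-2-/- arrays read 0.976, 1.11 and 0.999, a mean of 1.03 ± 0.0724 (SD, n = 3). The COX-2+/- arrays read 0.819, 0.771 and 0.584, a mean of 0.725 ± 0.124 (SD, n = 3), within or below the range of the wild-type arrays. The null arrays of the COX-2 line stood above both other genotypes without overlap.

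**Figure D1:**
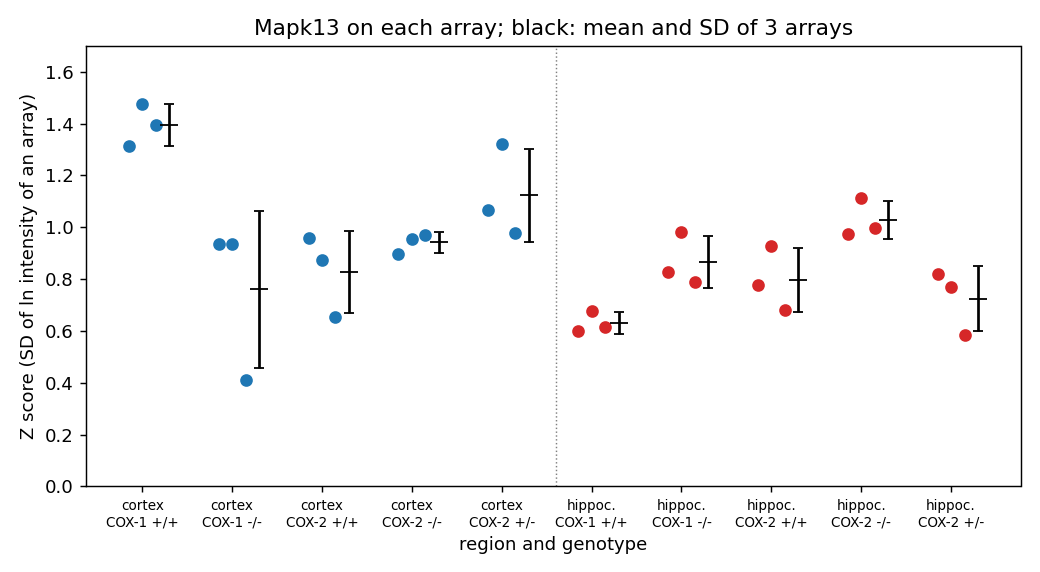
Z score of Mapk13 on each of the 30 arrays (points, 3 per group; blue cortex, red hippocampus, shortened to hippoc.) with the mean and SD of each group in black; the vertical axis starts at 0, the mean of an array. COX-1+/+ cortex stands highest at 1.39, and COX-1-/- cortex spreads from 0.410 to 0.936.

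Ranked by mean Z, the order was COX-1+/+ cortex, COX-2+/- cortex, COX-2-/- hippocampus, COX-2-/- cortex, COX-1-/- hippocampus, COX-2+/+ cortex, COX-2+/+ hippocampus, COX-1-/- cortex, COX-2+/- hippocampus and COX-1+/+ hippocampus. The same wild-type genotype of the COX-1 line thus held the first place in cortex and the last in hippocampus. Neighbours in this order overlapped in their arrays, with the exception of COX-2-/- hippocampus and COX-2-/- cortex, whose nearest arrays read 0.976 and 0.972.

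Mapk13 varied more than most probes of its level. Its SD within groups, pooled over groups, was 0.177 in cortex, at the 99.6th percentile of 930 probes whose mean Z lay within 0.25 of its own and whose median SD was 0.0578. In hippocampus it was 0.0977, at the 96.3rd percentile, against a median of 0.0536. Its group means spanned 0.634 in cortex and 0.398 in hippocampus, where the median spans of the same probes were 0.109 and 0.126. A difference of a given size in Mapk13 therefore weighs less against its own replicate spread than the same difference does for most of these probes.

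The first question of the study was how the loss of either enzyme changes expression. The study called a gene on 3 conditions, a mean Z above 0, P under 0.05 in a Z test on the replicates and a z ratio beyond 1.5 in either direction. For the z ratio the difference between the group means is scaled by the SD that such differences have over all probes. The study's methods print the divisor as the SD of the genes on an array, which is 1 after standardisation. With a divisor of 1 no Mapk13 difference below would pass 1.5, so the study's rule as applied here rests on the SD of differences. These are the contrasts that chose the gene, so the values that follow are a description.

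In cortex, Mapk13 was lower by 0.634 in COX-1-/- than in COX-1+/+ arrays (difference -0.634, z ratio -5.72), without overlap, and met the rule. There 2.71% of the 4102 probes tested met it, 18.7% had groups without overlap, and limma called 0.0488%. Without COX-1-/- replicate 3 the difference was -0.459 and the rule was still met. In the COX-2 line the null arrays were higher by 0.114 (z ratio 1.12), which did not meet the rule, where 4.32% of probes did. In hippocampus both null lines were higher than their wild types. The difference was 0.236 (z ratio 2.06) in the COX-1 line, where 4.8% of probes met the rule and 21.8% did not overlap. It was 0.233 (z ratio 2.23) in the COX-2 line, where 4.09% met the rule and 17.1% did not overlap. Mapk13 met the rule in both, as in the study, which lists it there with the same z ratios. In the COX-2 line it missed the rule without wild-type replicate 1.

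The wild-type groups of the lines differed as well. In cortex COX-2+/+ arrays were lower than COX-1+/+ arrays (difference -0.567, z ratio -4.86), without overlap, and met the rule, where 5.17% of probes met it and 21.3% did not overlap. This difference between wild types was close in size to the difference of -0.634 between COX-1-/- and COX-1+/+ cortex, and both are taken against the same 3 COX-1+/+ arrays. When the control was all 6 wild-type arrays of the region, the COX-1-/- difference in cortex was -0.351, and the rule was not met. The COX-2-/- difference in cortex then turned to -0.170. In hippocampus the COX-2+/+ arrays were higher by 0.165 (z ratio 1.12) without overlap, the nearest arrays reading 0.682 and 0.677. The groups of 29.6% of probes were without overlap there, and Mapk13 did not meet the rule, which 3.38% met.

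The heterozygous mice address whether loss of 1 copy of the COX-2 gene goes with a shift of Mapk13. In cortex, COX-2+/- arrays were higher than COX-2+/+ arrays by 0.295 (SE 0.123, 95% interval 0.0329 to 0.558) in 3 of 3 arrays and without overlap, as were the groups of 16.3% of probes. It did not pass limma's test (adjusted p = 0.635), which called 0% of 8011 probes in this comparison, although 7.59% had an unadjusted p under 0.05. By the study's rule it was called, with a z ratio of 2.76, as 3.26% of probes were, but in only 2 of the 6 sets that leave out 1 array. Against COX-2-/- cortex the COX-2+/- arrays were higher by 0.182 (SE 0.123, interval -0.0808 to 0.444, limma adjusted p = 0.645), without overlap by a narrow margin, where 21.8% of probes did not overlap. The rule, met by 3.15% of probes, was not met.

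In hippocampus the heterozygous arrays did not stand above the wild types. They differed from COX-2+/+ arrays by -0.0708 (SE 0.0738, interval -0.229 to 0.0870, limma adjusted p = 0.655), where limma called 2.82% of probes and 6.21% met the study's rule, which Mapk13 did not. They were lower than COX-2-/- arrays by 0.304 (difference -0.304, SE 0.0738, interval -0.462 to -0.146) in 3 of 3 arrays and without overlap, as were 24.5% of probes, with a limma adjusted p of 0.0758, where limma called 0.746% of probes. The z ratio was -2.68 and met the study's rule, as 5.02% of probes did, and it did so in 6 of the 6 sets that leave out 1 array. The COX-2-/- arrays of this comparison were among those that chose the gene, so it is not independent of that choice. With the replicate number as a block in the model the limma adjusted p was 0.0230 (SE 0.0525), and with an intensity trend it was 0.0352. Over all alternatives of this comparison it lay between 0.0230 and 0.255. The difference between the regions in the effect of COX-2+/- against COX-2+/+, cortex minus hippocampus, was 0.366 (SE 0.153, interval 0.0510 to 0.681), and it did not pass (limma adjusted p = 0.186), where 4.38% of probes did.

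The comparison of regions within the COX-2+/- mice sets none of the null or wild-type arrays that chose the gene against each other. The spread was still estimated over all 30 arrays, and this test too was chosen with earlier results of these data known. Mapk13 was lower in hippocampus than in cortex by 0.398 (difference -0.398, SE 0.108, interval -0.621 to -0.176), with hippocampal arrays below the cortical arrays in 3 of 3. It passed limma's test (adjusted p = 0.0162), as 12.6% of the 8008 probes did, and 6.04% passed as lower in hippocampus. The groups did not overlap, as for 41.2% of probes, and the study's rule was met, as by 6.76%. With the 6 COX-2+/- arrays alone in the model the adjusted p was 0.0352. The call was lost without cortex COX-2+/- replicate 2 (difference -0.299, adjusted p = 0.106) and without hippocampus COX-2+/- replicate 3 (difference -0.328, adjusted p = 0.0981). In the other genotypes the regional levels are those given above. COX-1+/+ arrays were higher in cortex without overlap, COX-2-/- arrays were higher in hippocampus without overlap by a narrow margin, and the arrays of the other 2 genotypes overlapped.

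**Figure D2:**
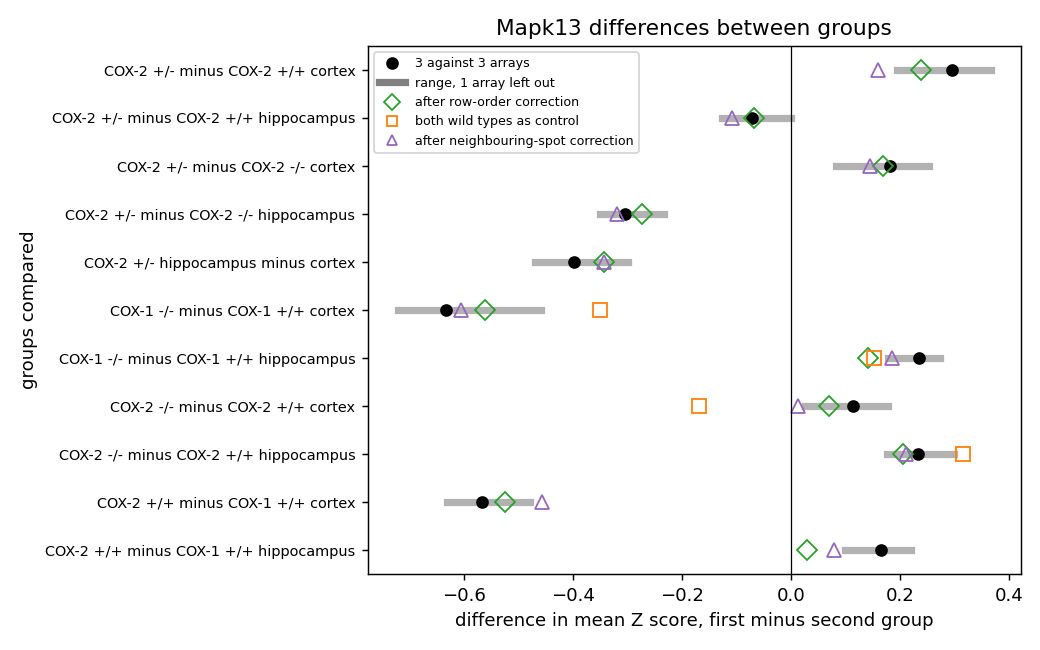
Difference in mean Z of Mapk13 for 11 comparisons, first minus second group (black points), with the range over the fits that leave out 1 array (grey bars) and the value after each of 3 changes of processing (open symbols). In COX-1-/- against COX-1+/+ cortex the value moves from -0.634 to -0.351 with both wild types as control.

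The profile of Mapk13 was set against the order of the probes in the table. Mapk13 stands in row 16369 of the table. The similarity of a probe's profile to that of Mapk13, taken as Pearson's r over the 30 arrays, recurred along the table. Its correlation between rows was 0.560 at 22 rows apart and 0.546 at 528 rows apart, against 0.0275 at 264 rows apart. Read as blocks of 528 rows in 24 lines of 22, a layout inferred from these distances and given in no source used here, Mapk13 is the first spot of the first line of block 16. Candidate probes in line 1 of a block had a median r with Mapk13 of 0.126, those in lines 2 to 18 a median of -0.141 and those in lines 23 and 24, of which 0 of 151 exceeded 0.8, a median of 0.407. The candidates are the 2361 probes of the second part with 1 gene symbol and a mean Z above 0.

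The median deviation of the neighbouring spots, within 2 lines and 2 columns, was therefore subtracted from each probe on each array. This alternative was chosen after these values were seen. At the corner of its inferred block Mapk13 had only 8 such neighbours, none of them before it in line or column. The COX-1-/- difference in cortex then was -0.606 and that between the wild types in cortex -0.457. The 2 null lines in hippocampus stood at 0.186 and 0.211 and still met the rule, and the regional difference in COX-2+/- mice was -0.343 (limma adjusted p = 0.0441). The difference between COX-2+/- and COX-2+/+ cortex was 0.159 and no longer met the rule, that between COX-2-/- and COX-2+/+ cortex was 0.0131, and the wild types of hippocampus differed by 0.0796. A running median along the rows of the table gave 0.142 for COX-1-/- hippocampus, where the rule was then not met, and 0.0293 for the wild types of hippocampus. It gave 0.238 for COX-2+/- against COX-2+/+ cortex, where the rule was then not met either, and 0.0698 for COX-2-/- cortex. With it the regional difference in COX-2+/- mice was -0.344 and no longer passed (limma adjusted p = 0.0513). Among the 20 rows nearest to Mapk13 the median difference between the wild types of hippocampus was 0.153, beside the 0.165 of Mapk13 itself, whereas in COX-1-/- against COX-1+/+ cortex it was -0.0160, within a range of -0.185 to 0.132. In the inferred layout the rows just before Mapk13 end the block before, so near rows are not all neighbouring spots. What the place of the spot adds to each difference was not tested further.

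The probes most like Mapk13 were those with the highest Pearson's r over the 10 group means among the 2361 candidates. They were Ndufa10, a subunit of mitochondrial complex I (r = 0.957), Tiparp, a target gene of the aryl hydrocarbon receptor (r = 0.952), Srsf10, a splicing factor (r = 0.951), Agtrap, which binds the angiotensin type 1 receptor (r = 0.941), and Glo1, the glyoxalase that detoxifies methylglyoxal (r = 0.934). The median r of the candidates was -0.0741, and 40 of them exceeded 0.8. Because the group means share arrays, membranes and scans, these values are a description. Over the 30 arrays Tiparp (r = 0.940), Srsf10 (r = 0.915) and Glo1 (r = 0.906) led, and they also followed Mapk13 among the arrays of 1 group, with r of 0.903, 0.898 and 0.810 after group means were removed. For Agtrap and Ndufa10 the r within groups was 0.575 and 0.474.

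**Figure D3:**
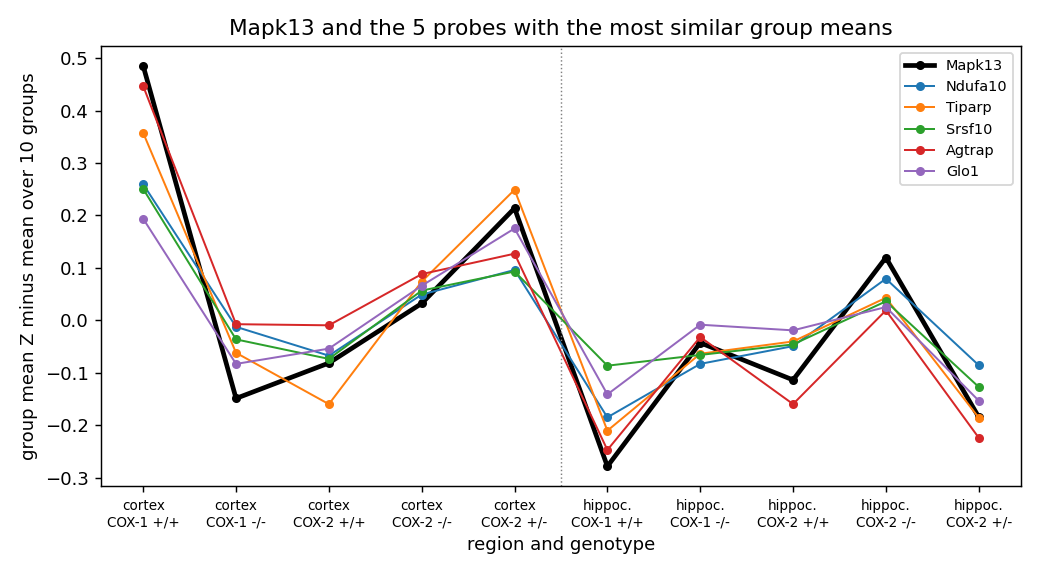
Group means of Mapk13 (thick black) and of the 5 probes most like it, each less its own mean over the 10 groups, in Z; hippoc. is hippocampus. The 5 were picked for this likeness. All 6 probes are highest in COX-1+/+ cortex and next highest in COX-2+/- cortex.

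In the inferred layout all 5 lie in the first 4 lines of a block, but not in the column of Mapk13, which is in line 1 and column 1 of block 16. Tiparp is in line 1 and column 22 and Srsf10 in line 4 and column 22 of block 15, Glo1 in line 1 and column 14 of block 14, Agtrap in line 3 and column 19 of block 2, and Ndufa10 in line 2 and column 20 of block 1. In line 1 of the blocks, 7 of 71 candidates had an r over arrays above 0.8, against 6 of 1762 in lines 2 to 18 and 0 of 528 in lines 19 to 24. Since these probes were picked for their group means, their differences between groups follow those of Mapk13 by that choice. For Tiparp they were -0.419 for COX-1-/- against COX-1+/+ cortex, -0.517 between the wild types of cortex and 0.409 for COX-2+/- against COX-2+/+ cortex.

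**Figure D4:**
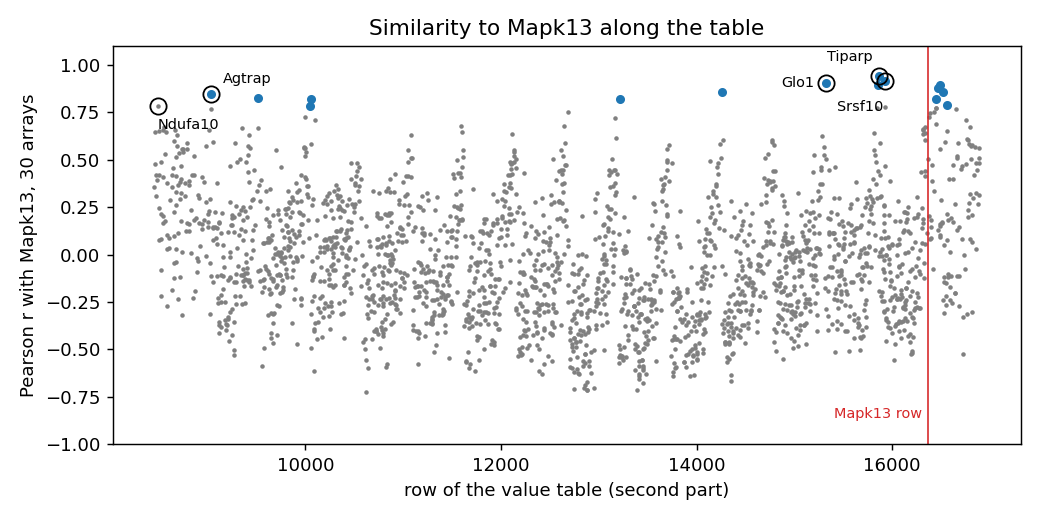
Pearson's r with Mapk13 over 30 arrays (vertical axis) for the 2361 candidate probes by their row in the table (horizontal axis); circles mark the 5 probes most like Mapk13 by group means, filled blue points the 15 highest over arrays, and the red line the row of Mapk13. The values rise and fall at a steady spacing of rows, and the probe medians in stretches of 528 rows run from -0.244 to 0.294.

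Of the other p38 kinases, Mapk14 had 2 probes, and Mapk11 and Mapk12 had no probe by symbol. Mapk14, the p38alpha gene, is a near neighbour of Mapk13 on chromosome 17, with 1 annotated gene between them. One probe of Mapk14 was high and steady, with group means between 1.45 and 1.62. Its other probe was below the array mean throughout, between -1.56 and -1.31, so the 2 probes disagree on the level. In COX-2+/- hippocampus the arrays of the upper probe read 1.63, 1.57 and 1.61, and in COX-2+/- cortex 1.5, 1.38 and 1.47. By the upper probe Mapk14 was higher in hippocampus by 0.155 (limma adjusted p = 0.0437), but by the lower probe, which was not tested for its low level, it was lower there (difference -0.200), so the regional direction of Mapk14 was not settled. In COX-1-/- against COX-1+/+ cortex the upper probe differed by -0.0610 and the lower by -0.147, and between the wild types of cortex by -0.0870 and -0.0682, against -0.634 and -0.567 for Mapk13. Of the nearest other genes of the chromosome with a probe in the second part, Fkbp5, which encodes a chaperone that binds the glucocorticoid receptor, differed by -0.0799 and -0.0224 in these comparisons, and Stk38 lay below the array mean. In COX-2-/- against COX-2+/+ hippocampus, where Mapk13 was higher, 1 of the 3 probes of Srsf3 and 1 of the 2 of Srpk1 met the study's rule as lower (-0.206 and -0.189), as 4.09% of all probes met it in either direction. The probe of Kctd20 met it in none of the comparisons in which it was read.

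The wider p38 pathway was taken as a list of 92 genes, of which 46 had probes, 70 in all. It holds the upstream kinases, MAP3K enzymes and their activators, targets, phosphatases, scaffolds and other MAP kinases. Between 34 and 36 of its probes were tested in a comparison, or 18 and 19 in the comparisons of COX-1 cortex. In COX-2+/- against COX-2+/+ cortex, 0 of 35 passed limma's test, 2 had an unadjusted p under 0.05, as did 7.59% of all probes, and the median difference was -0.0249 beside -0.00254 over all probes. In hippocampus 1 of 34 passed, a share near the 2.82% of all probes, and 0 passed in each set that leaves out 1 array. It was a probe of Stat3, a transcription factor downstream of cytokine receptors, higher by 0.242 (adjusted p = 0.0338), while another Stat3 probe differed by 0.0178 (adjusted p = 0.895). Against COX-2-/- arrays 0 of 34 passed by limma in either region, with 3 in cortex and 6 in hippocampus at an unadjusted p under 0.05, where 10.3% and 16.7% of all probes were.

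The upstream kinases Map2k3 and Map2k6, which activate p38, had 1 probe each. In COX-2+/- against COX-2+/+ hippocampus they differed by 0.143 (adjusted p = 0.285) and 0.0895 (adjusted p = 0.456), and in cortex by 0.0516 and -0.0211, none of which passed. The comparison of regions in COX-2+/- mice gave the most calls in the list, 8 of 34 against 12.6% of all probes. Higher in hippocampus were Gadd45g, a stress-induced activator of MAP3K4 (0.25, adjusted p = 0.0210), Prkd2, a protein kinase D (0.177, adjusted p = 0.0227), Rac1, a small GTPase (0.153, adjusted p = 0.0284), and the upper probe of Mapk14. Lower were Spag9, the scaffold JIP4 (-0.222, adjusted p = 0.00350), Nlk, an atypical MAP kinase (-0.232, adjusted p = 0.0129), Stmn1, the p38delta target stathmin (-0.174, adjusted p = 0.0190), and Eif4e, the cap-binding protein of translation (-0.166, adjusted p = 0.0277). Another Rac1 probe differed by -0.0300 (adjusted p = 0.837). Between 3 and 5 of the list's probes passed when 1 array was left out.

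In the comparisons that chose Mapk13 the list gave few calls. By limma 0 of 18 probes passed in COX-1-/- cortex, and the median difference was 0.0366 beside 0.00846 over all probes. Of the 18, 6 had an unadjusted limma p under 0.05, a larger share than the 14.8% of all probes, which was not tested. In COX-1-/- hippocampus 0 of 36 passed by limma, which called 0.31% of all probes, and 5 stood at an unadjusted p under 0.05, as did 16.4% of all probes. In the COX-2-/- comparisons limma called 0 of 35 in cortex and 0 of 34 in hippocampus, and 0% of all probes in either. At an unadjusted p under 0.05 there were 3 and 5 list probes, against 9.42% and 12.3% of all probes. Between the wild types, Spag9 was lower in COX-2+/+ cortex (-0.208, adjusted p = 0.0499), where limma called 1.95% of probes and the call was lost in each set that leaves out 1 array, and 1 probe of Eif4e was lower in COX-2+/+ hippocampus (-0.339, adjusted p = 0.00459), where it called 5.25%. Another Eif4e probe differed by -0.0403 there (adjusted p = 0.665). Spag9 lies in the same block as Mapk13.

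**Figure D5:**
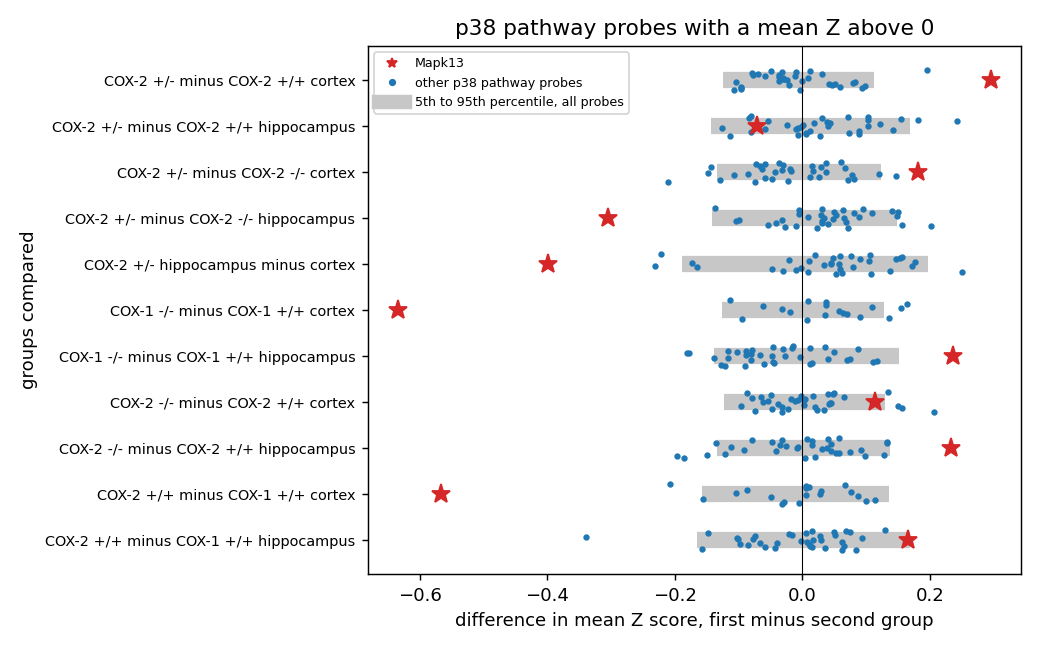
Differences in mean Z, first minus second group, of the tested p38 pathway probes (blue points), of Mapk13 (red star) and of the middle 90% of all tested probes (grey bars, 5th to 95th percentile) in 11 comparisons. Mapk13 lies outside the grey bar in 8 of them, some of which chose the gene, and its spread within groups was above that of most probes of its level. Most of the other pathway probes lie within the bars.

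Markers of other cell types moved with Mapk13 in some comparisons and against it in others, and their part in its differences was not tested. Of the blood list, 2 of 5 genes were measured, by 13 probes, 12 of them of the haemoglobin gene Hba-a1. In COX-1-/- against COX-1+/+ cortex 11 of its 12 tested probes were lower, and between the wild types of cortex 12 of 12 were lower in COX-2+/+. The summed Z of the list ran from 3.37 to 7.36 in COX-1+/+ cortex, from 3.38 to 4.90 in COX-1-/- cortex and from 3.45 to 3.74 in COX-2+/+ cortex. In COX-2+/- against COX-2+/+ cortex 9 of 10 were higher, and in COX-2+/- hippocampus against cortex 10 of 10 were lower. In the hippocampus 7 of 10 were lower in COX-1-/-, in COX-2-/- and, between the wild types, in COX-2+/+ arrays, where Mapk13 was higher in each case. Of the microglial list 4 of 11 genes were measured, and its summed Z ran from 0.845 to 1.12 in COX-1+/+ cortex, from 0.357 to 0.927 in COX-1-/- cortex and from 0.265 to 0.420 in COX-2+/+ cortex. Its member Fcer1g, the Fc receptor gamma chain, was lower in COX-2+/+ than in COX-1+/+ cortex by 0.573 (difference -0.573). That was the list's largest difference there, and the median of the 3 tested microglial probes was -0.0860. Of these, 1 passed limma's test as lower, where limma called 1.95% of all probes. In COX-1-/- against COX-1+/+ cortex the median was -0.0285, and 1 of the 3 was higher. The lowest differed by -0.396, and 1 of the 3 met the study's rule as lower, where 2.71% of all probes met it.

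In the hippocampus of the COX-2 line the summed neuronal and astrocytic markers were low in COX-2+/- arrays against both other genotypes. Mapk13 was lower against COX-2-/- arrays, but against COX-2+/+ arrays it differed by only -0.0708, with overlap. The summed Z of the neuronal list, 4 probes, ran from 1.31 to 1.45 in COX-2+/- hippocampus, from 1.72 to 1.91 in COX-2+/+ and from 1.59 to 1.85 in COX-2-/- hippocampus, without overlap with either. The summed Z of the astrocytic list, 3 probes of 2 of its 7 genes, ran from 0.113 to 0.231, from 0.549 to 0.682 and from 0.455 to 0.557 in the same groups. Among all single probes tested, 33.3% did not overlap between COX-2+/- and COX-2+/+ hippocampus, and 24.5% between COX-2+/- and COX-2-/- hippocampus. The neuronal sum was in the COX-2+/- range in COX-1+/+ hippocampus too, from 1.34 to 1.42. Against COX-2-/- hippocampus 1 of the 3 tested neuronal probes was higher in COX-2+/- arrays. Tubb3 was lower in COX-2+/- than in COX-2-/- hippocampus by 0.216 (difference -0.216, limma adjusted p = 0.0908), which did not pass, and the choroid plexus marker Otx2, below the array mean and not tested, differed by -0.270.

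The choroid plexus list, measured by Ttr and Otx2, varied widely within groups. Its summed Z ran from -0.0751 to 1.56 in COX-2+/- cortex, from -0.0687 to 0.156 in COX-2+/+ cortex and from -0.209 to 1.43 in COX-2+/- hippocampus. Ttr, the thyroid hormone carrier made by the choroid plexus, differed by 0.492 between COX-2+/- and COX-2+/+ cortex (limma adjusted p = 0.723). Of the vascular and meningeal list, 5 of 11 genes were measured, and 0 of 5 tested probes passed between COX-2+/- and COX-2+/+ cortex.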

How the data were processed

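The values are the Z scores the authors deposited, a score in units of the SD of natural log intensity. Per the study's methods, 5 µg of total RNA was labelled with 33P and hybridised to nylon arrays, images were read with ArrayPro, and each array was standardised. The study gives 3 mice per group and hybridisation in triplicate, so whether the 3 arrays are 3 mice is open and p-values measure the spread among arrays. No depth applies.

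Group means were modelled by limma 3.58.1 (R 4.3.3) on the 15 arrays per region, or all 30 between regions, with Benjamini-Hochberg adjustment over probes with mean Z above 0 and a threshold of 0.05. Tables were handled with data.table (version 1.17.8), Python 3.11.15, pandas 2.3.3 and numpy 2.4.6, and drawn with matplotlib 3.10.9. The fit was tested on simulated data. The members, gene lists and tests were chosen with earlier results of these data known. Probe names came from the platform annotation, with symbols updated by gene ID for 9641 of 9663 single-gene probes. The z ratio in COX-1 cortex used the SD of the analysed part. Named genes are Mapk13, other p38 kinases, its measured chromosomal neighbours, the 5 most similar probes, and members of the p38 and marker lists that passed a test. Map2k3 and Map2k6, the other probes of called genes and the markers Tubb3, Snap25, Nefl, Zbtb20, Otx2, Ttr and Fcer1g were added after their values were seen.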

Additional observations from a re-analysis of the deposited data

Results flagged for a closer look

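Mapk13 differences that run in opposite directions were picked out where every array of one group lay on one side of its reference mean and every array of the other group on the opposite side. The difference between the paired effects was not tested in any of these cases. COX-1-/- against COX-1+/+ gave -0.634 in cortex and 0.236 in hippocampus. In cortex the same -0.634 stood beside 0.114 for COX-2-/- against COX-2+/+. COX-2+/- against COX-2-/- gave 0.182 in cortex and -0.304 in hippocampus. The wild types, COX-2+/+ against COX-1+/+, gave -0.567 in cortex and 0.165 in hippocampus. The COX-1 and wild-type pairs share the COX-1+/+ arrays of each region.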

How the results depend on the processing

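Median centring, quantile normalization, a mean Z above 0.5, the compared groups alone and all 30 arrays changed no direction and no limma call of Mapk13 in the comparisons to which each was applied. With the replicate number as a block the COX-2+/- against COX-2-/- hippocampus difference of -0.304 passed (adjusted p = 0.0230), as it did with an intensity trend (0.0352). Deviations of same-numbered arrays from their group means correlated with r from -0.116 to 0.270. Only between the wild types of hippocampus did all 3 pairs exceed 0.1, and the numbers were not taken to pair arrays. Arrays of different numbers were not compared, so whether same-numbered arrays share a batch was not tested. The block changed no other call of Mapk13 and no list count by over 1.5 times. With a running median in row order the regional difference in COX-2+/- mice was -0.344 and no longer passed (adjusted p = 0.0513), COX-1-/- hippocampus gave 0.142 and the wild types of hippocampus 0.0293. With both wild types as control the values were -0.351 and 0.153 for COX-1-/- cortex and hippocampus, and -0.170 for COX-2-/- cortex, a reversal. The causes were not tested. With copied values kept in the SD the z ratio of COX-1-/- cortex was -7.15. Of the 5 probes most like Mapk13, 3 were shared when r was taken over 30 arrays.

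Leaving out 1 array, COX-2+/- against COX-2+/+ ran from 0.196 to 0.367 in cortex and -0.127 to -0.000287 in hippocampus, COX-2+/- against COX-2-/- from 0.0820 to 0.254 and -0.351 to -0.234, and hippocampus against cortex from -0.470 to -0.299. COX-1-/- ran from -0.722 to -0.459 in cortex and 0.179 to 0.274 in hippocampus, COX-2-/- from 0.0259 to 0.179 and 0.177 to 0.299, and the wild types from -0.632 to -0.479 and 0.0991 to 0.221. Calls of the p38 list ran from 0 to 0 for COX-2+/- against COX-2+/+ hippocampus and for the wild types of cortex, against 1 in each with all arrays, and from 3 to 5 between regions.

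By the study's rule the list, with 34 to 36 probes tested, gave 1 call in COX-2+/- against COX-2+/+ cortex (3.26% of all probes) and 1 in each region against COX-2-/- (3.15% in cortex, 5.02% in hippocampus), 3 between regions (6.76%), and 2 each in COX-1-/- hippocampus (4.8%) and COX-2-/- cortex (4.32%) and hippocampus (4.09%). With no filter on low values limma called, of 70 list probes, 1 in COX-2+/- against COX-2-/- hippocampus (0.775% of all probes), 17 between regions (11.2%), 1 in COX-1-/- hippocampus (0.651%) and 9 between the wild types of hippocampus (12.8%), and 2 of 41 between those of cortex (1.56%). With 3 arrays a group, precision is set by their number, and probes far below the array mean carry the least signal over background.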
